A study of Mus musculus with 6 samples.

Results

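The genes described are 10 transcripts used to recognise astrocytes and radial glia: Slc1a2, Slc1a3, Aqp4, Gja1, Gfap, S100b, Aldh1l1, Aldoc, Sox9 and Fabp7. They were taken by symbol, and all 10 were found among the 18211 genes of the deposited table. The libraries were made from cells captured with an antibody to PDGFRα from the brains of C57BL/6 mice on postnatal day 7, by a procedure meant to yield oligodendrocyte precursor cells (OPCs). One group of 3 libraries came from wildtype (WT) mice, which per the study carried no CreERT. The other 3 came from NG2-CreERTM:DISC1 exon3 fl/+ mice, called DISC1-Δ3, in which Cre under the NG2 promoter removes exon 3 from one Disc1 allele. Both groups received tamoxifen by gavage on days 4 to 7, so the groups differ by CreERT as well as by the floxed allele, and these cannot be told apart. How many animals gave each library is not given in the sources used here, and p-values measure the spread between these libraries, which may in part be technical.

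Astrocytes clear glutamate from synapses, buffer water and ions, couple to each other through gap junctions and supply neurons with metabolites. Radial glia, the progenitors of the developing brain, share many of their genes, and in the postnatal brain some of these genes, among them Fabp7 and Slc1a3, are also transcribed in OPCs. NG2 and PDGFRα mark OPCs, and NG2 is also made by pericytes. In an OPC preparation astrocyte transcripts can therefore come from OPCs or from astrocytes in the sample, and counts per gene do not separate these sources.

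The libraries held 13716631 to 16417232 reads assigned to genes, and each of the 10 genes had 1167 to 37357 reads in every library. The levels below are RPKM as deposited, that is reads scaled to transcript length and to library size, so that genes can be compared with each other. Fold changes come from edgeR's quasi-likelihood test on the reads, after TMM scaling, which corrects for a few abundant genes taking a larger share of one library. The TMM factors were 0.970 to 0.973 in WT and 1.02 to 1.04 in DISC1-Δ3 libraries, so a fitted fold is slightly lower than the ratio of the RPKM. Disc1 itself had a log2 change of -0.45 with a standard error of 0.088 (adjusted p = 0.000528), in reads that do not resolve the deleted exon. DISC1-Δ3 replicate 3 stood apart: the chi-square of its counts against its 2 replicates was 4.82 and 5.07 times the degrees of freedom, while for the other pairs it was 1.79 to 2.85 times.

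Windows around annotated starts of 8 of the 10 genes were searched for letters that several factors read. The starts are from RefSeq on GRCm38.p6, the assembly also known as mm10. Stretches are shown for the gene with the largest rise, Gfap, for the one with the largest fall, Slc1a2, and for Slc1a3, the other glutamate transporter, which did not pass the test. Capitals mark matches to CTTTGA or its reverse complement, the core read by TCF/LEF factors of the Wnt pathway, or to TTCNNNGAA, the letters read by STAT factors.
Gfap, chr11:102897191-102897350, minus strand: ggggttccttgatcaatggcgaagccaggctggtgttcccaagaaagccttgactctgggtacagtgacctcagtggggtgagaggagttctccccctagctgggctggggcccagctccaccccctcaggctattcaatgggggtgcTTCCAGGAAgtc
Slc1a2, chr2:102706228-102706377, plus strand: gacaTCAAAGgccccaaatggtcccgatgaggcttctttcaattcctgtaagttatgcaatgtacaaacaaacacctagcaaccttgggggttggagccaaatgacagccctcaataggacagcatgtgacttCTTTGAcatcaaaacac
Slc1a3, chr15:8710808-8710957, minus strand: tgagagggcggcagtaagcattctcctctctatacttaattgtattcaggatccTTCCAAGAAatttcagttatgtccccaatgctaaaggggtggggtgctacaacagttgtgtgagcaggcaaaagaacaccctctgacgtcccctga

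Across the 9 windows searched, 2 for Aldoc and 1 for each other gene, the TCF/LEF letters were in those of Slc1a2 and Aldoc, and the STAT letters in those of Gfap, Slc1a3 and Aldoc. The Gfap match spans the start itself, from base -2 to base 7. The Slc1a2 matches begin at bases -206 and -77 from its start. The windows of Gfap, Slc1a2, Aldh1l1, Fabp7 and Aldoc belong to starts inside the gene, downstream of its first annotated base, and all Aldoc matches are in the window of the more downstream of its starts. Of all 32851 windows of this length in the table, 16.0% hold the TCF/LEF letters and 8.30% the STAT letters on either strand. The full palindrome of the NFI factors, which act in gliogenesis, was in none of the 9 windows and in 0.0365% of all. These matches describe the letters and say nothing of binding.

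All 10 genes were transcribed at high levels in the cells of both genotypes. By mean RPKM they ranked between 143 and 3260 of the 18211 genes, with Aldoc highest and Sox9 lowest. Pdgfra, whose protein was the target of the capture, had an RPKM of 17.5 ± 0.503 (SD, n = 3) in WT and 25.9 ± 0.915 (SD, n = 3) in DISC1-Δ3 libraries, and all 10 genes lay above it in all 6 libraries. The RPKM of Aldoc was 37.7 ± 1.32 times that of Pdgfra in WT libraries and 24.1 ± 1.02 times in DISC1-Δ3 libraries (SD, n = 3 each). For Slc1a3 the ratio to Pdgfra was 31.8 ± 0.953 and 21.8 ± 0.875 (SD, n = 3 each). Transcripts of the OPC genes Pdgfra, Cspg4, Olig2 and Sox10 were present in every library. Their mean RPKM in WT libraries was 15.8 to 38.0, below that of 9 of the 10 astrocyte and radial glia genes, all but Sox9. Other OPC markers lay higher or lower. Olig1, a factor of the oligodendrocyte lineage, had a mean of 252 RPKM in WT libraries, above 7 of the 10 genes. Gpr17, a receptor of committed precursors, had 61.7, above S100b, Aqp4 and Sox9. Cacng4 had 24.2, close to Sox9 at 24.0. Lhfpl3, Nkx2-2 and Vcan had 11.1, 7.75 and 7.74, below all 10 genes.

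**Figure D1:**
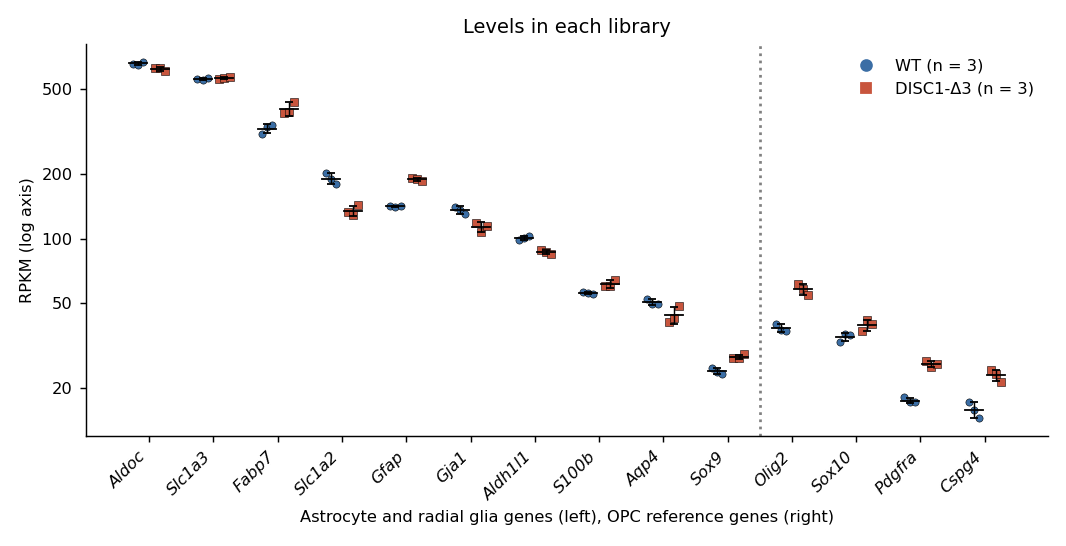
Deposited RPKM (log axis) of the 10 astrocyte and radial glia genes and of 4 OPC genes in the 3 WT libraries (circles) and the 3 DISC1-Δ3 libraries (squares), with the mean and SD as black bars. Aldoc and Slc1a3 lie above 500 in every library, while Pdgfra and Cspg4 lie below 27, and Gfap and Slc1a2 change places between the genotypes.

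In WT cells the order of mean RPKM was Aldoc, Slc1a3, Fabp7, Slc1a2, Gfap, Gja1, Aldh1l1, S100b, Aqp4 and Sox9. Neighbours in this order did not overlap between libraries, except Gfap and Gja1, at 142 ± 0.775 and 136 ± 5.34 RPKM (SD, n = 3 each). In DISC1-Δ3 cells the order was the same but for Gfap and Slc1a2, which had changed places, and no neighbours overlapped. The sum of the 10 genes was 2226 to 2252 RPKM in WT and 2223 to 2283 in DISC1-Δ3 libraries, ranges that overlap.

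Of the 10 genes, 3 rose in DISC1-Δ3 cells (Gfap, Fabp7 and Sox9), 5 fell (Slc1a2, Gja1, Aldh1l1, Aqp4 and Aldoc) and 2 (Slc1a3 and S100b) did not pass an adjusted p under 0.05. No change reached a factor of 2 in either direction. This comparison moved many genes: of the 13792 genes tested, 39.9% passed the threshold, 20.4% higher and 19.5% lower. Among the 2699 genes with at least 1000 reads in every library, a depth chosen after seeing the data, 55.3% passed, 19.8% higher and 35.5% lower. The median log2 fold change of the 10 genes was -0.11, beside 0.0075 for all tested genes and -0.05 for the deeply read ones. On TMM-scaled values the genotypes did not overlap for any of the 10 genes, as for 49.6% of all tested genes. On the deposited RPKM they did not overlap for 9, all but Slc1a3, as for 52.0% of all tested genes. In bulk libraries, fewer cells of a type and less RNA per cell cannot be told apart.

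**Figure D2:**
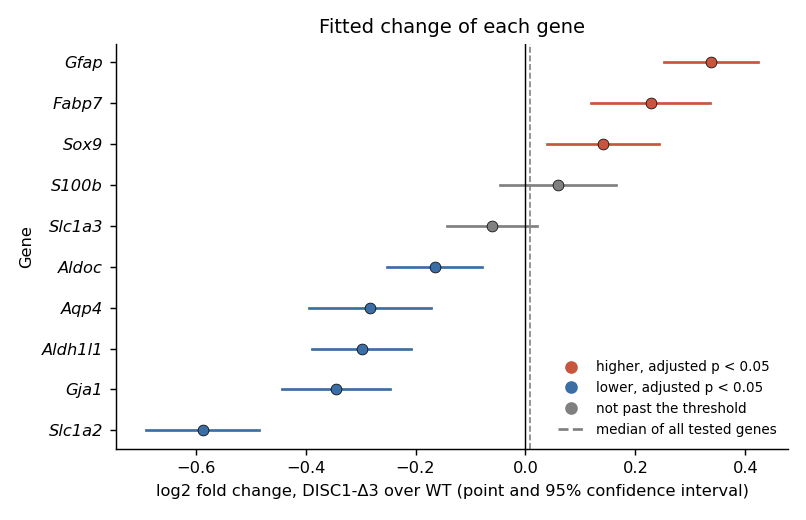
Fitted log2 fold change of each of the 10 genes, DISC1-Δ3 over WT (horizontal axis), with its 95% confidence interval from edgeR; colour gives the call at an adjusted p under 0.05 and the dashed line the median of all tested genes, 0.0075. The genes run from -0.59 for Slc1a2 to 0.34 for Gfap, and the intervals of Slc1a3 and S100b include 0.

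The pair of glutamate transporters parted. Slc1a2 (gene ID 20511, chr2:102658659-102790784) encodes GLT-1, the main glutamate transporter of mature astrocytes. Its RPKM was 202, 189 and 180.0 in WT replicates 1 to 3 and 134, 129 and 143 in DISC1-Δ3 replicates 1 to 3. Every DISC1-Δ3 library was below every WT library. The mean fell from 190.3 ± 11.0 to 135 ± 7.25 RPKM (SD, n = 3 each), which is a log2 change of -0.59 with a standard error of 0.049 (adjusted p = 2.77e-08), or 0.666-fold with a 95% confidence interval of 0.620 to 0.715. This was the largest change among the 10 genes.

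Slc1a3 (gene ID 20512, chr15:8634124-8710764) encodes GLAST, the transporter that radial glia and young astrocytes use. It had an RPKM of 557, 549 and 561.5 in WT and 558, 562 and 571 in DISC1-Δ3 replicates 1 to 3, and these ranges overlap. The fitted log2 change was -0.06, with a standard error of 0.039 (adjusted p = 0.230), 0.959-fold with an interval of 0.906 to 1.01. A fall of up to 9.4% thus remains within the interval. Its sign depends on the scaling: when RPKM sums set the scaling it was 0.02 (adjusted p = 0.556).

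The ratio of Slc1a2 to Slc1a3 within a library does not depend on scaling between libraries. It was 0.363, 0.345 and 0.321 in WT and 0.240, 0.229 and 0.250 in DISC1-Δ3 replicates 1 to 3. The mean ratio was 0.343 ± 0.0212 in WT and 0.240 ± 0.0106 in DISC1-Δ3 cells (SD, n = 3 each), without overlap. A two-sided exact permutation test gave p = 0.1, the smallest that 3 against 3 libraries allow, as it did for all 12 ratios computed.

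Both channel genes fell. Gja1 (gene ID 14609, chr10:56377330-56402513) encodes connexin 43, the main gap junction protein of astrocytes. It had an RPKM of 141, 136 and 130.4 in WT and 118, 107 and 114 in DISC1-Δ3 replicates 1 to 3, without overlap. The fitted log2 change was -0.34, with a standard error of 0.047 (adjusted p = 1.13e-05), or 0.787-fold with an interval of 0.736 to 0.843. Gjb6, which encodes connexin 30, the other astrocyte connexin, had a log2 change of -0.04 (adjusted p = 0.498). The ratio of Gja1 to Gjb6 was 2.16 ± 0.156 in WT and 1.80 ± 0.153 in DISC1-Δ3 cells (SD, n = 3 each), without overlap.

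Aqp4 (gene ID 11829) encodes the water channel of astrocyte endfeet. Its RPKM was 52.3, 49.3 and 49.4 in WT and 40.7, 42.4 and 48.3 in DISC1-Δ3 replicates 1 to 3. DISC1-Δ3 replicate 3 lay close to the WT libraries and the other two lay below both. The fitted log2 change was -0.28, with a standard error of 0.053 (adjusted p = 0.00035), or 0.822-fold with an interval of 0.761 to 0.888. Without DISC1-Δ3 replicate 3 it was -0.35, the lowest value over all alternatives.

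Of the filament and calcium-binding genes, Gfap rose and S100b did not pass the test. Gfap (gene ID 14580, chr11:102887336-102900912) encodes the intermediate filament protein most used to stain astrocytes. It had an RPKM of 142, 141 and 142 in WT and 192, 190.2 and 186 in DISC1-Δ3 replicates 1 to 3. The WT libraries were nearly equal, and every DISC1-Δ3 library was above them. The mean rose from 142 ± 0.775 to 189 ± 2.98 RPKM (SD, n = 3 each), which is a log2 change of 0.34 with a standard error of 0.041 (adjusted p = 2.97e-06), or 1.26-fold with an interval of 1.19 to 1.34.

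S100b (gene ID 20203, chr10:76253853-76261159) encodes a calcium-binding protein made by astrocytes and also by cells of the oligodendrocyte lineage. Its RPKM was 56.35, 55.7 and 55.05 in WT and 59.8, 60.0 and 64.2 in DISC1-Δ3 replicates 1 to 3, without overlap. After TMM scaling the fit gave a log2 change of 0.06 with a standard error of 0.050 (adjusted p = 0.380), 1.04-fold with an interval of 0.968 to 1.12. When RPKM sums set the scaling, S100b was higher at 0.14 (adjusted p = 0.0368).

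Both enzyme genes fell. Aldh1l1 (gene ID 107747, chr6:90486427-90600203) encodes a folate enzyme whose promoter is widely used to label astrocytes. It had an RPKM of 98.5, 100.2 and 102.3 in WT and 88.0, 86.1 and 84.9 in DISC1-Δ3 replicates 1 to 3, without overlap. The fitted log2 change was -0.30, with a standard error of 0.043 (adjusted p = 2.13e-05), or 0.813-fold with an interval of 0.764 to 0.865. In the GENCODE annotation 11.1% of its exon bases also belong to an antisense gene, Gm15756, and the sources used here do not say that strand was used in counting.

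Aldoc (gene ID 11676, chr11:78322968-78327781) encodes the brain form of the glycolytic enzyme aldolase. It had the highest RPKM of the 10 genes in all 6 libraries, with 657, 649.9 and 670.1 in WT and 629, 629.8 and 605 in DISC1-Δ3 replicates 1 to 3. The groups did not overlap, but the gap between them was small, at 0.892-fold with an interval of 0.840 to 0.947. The fitted log2 change was -0.17, with a standard error of 0.041 (adjusted p = 0.00395). When RPKM sums set the scaling, it was -0.08 and no longer passed (adjusted p = 0.0586).

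The lipid carrier Fabp7 and the transcription factor Sox9 both rose. Fabp7 (gene ID 12140, chr10:57784881-57788450) encodes BLBP, a fatty acid carrier of radial glia and young glia. It had an RPKM of 308, 332 and 338 in WT and 385, 389.55 and 437 in DISC1-Δ3 replicates 1 to 3. DISC1-Δ3 replicate 3 was the highest library and WT replicate 1 the lowest. The mean rose from 326 ± 15.8 to 404 ± 28.7 RPKM (SD, n = 3 each), which is a log2 change of 0.23 with a standard error of 0.051 (adjusted p = 0.00181), or 1.17-fold with an interval of 1.09 to 1.26.

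Sox9 (gene ID 20682, chr11:112782224-112787760) encodes a transcription factor needed for glial fate and kept on in astrocytes. It had an RPKM of 24.9, 23.8 and 23.4 in WT and 27.7, 27.7 and 28.7 in DISC1-Δ3 replicates 1 to 3, without overlap. The fitted log2 change was 0.14, with a standard error of 0.048 (adjusted p = 0.0271), or 1.10-fold with an interval of 1.03 to 1.18. The call was lost without WT replicate 2 (0.14, adjusted p = 0.0946), without WT replicate 3 (0.12, adjusted p = 0.114), without DISC1-Δ3 replicate 1 (0.13, adjusted p = 0.0897), without DISC1-Δ3 replicate 2 (0.13, adjusted p = 0.105) and with DESeq2 (0.13, adjusted p = 0.0701).

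The genes differed in direction from each other within the same libraries. The ratio of Gfap to Slc1a2 was 0.706, 0.745 and 0.788 in WT and 1.44, 1.48 and 1.30 in DISC1-Δ3 replicates 1 to 3, so that Slc1a2 was the higher of the pair in WT and Gfap in DISC1-Δ3 libraries. The ratio of Gfap to Aldh1l1 went from 1.41 ± 0.0311 to 2.19 ± 0.0146, a ratio of means of 1.55 (SD, n = 3 each). The ratio of Gfap to Slc1a3 went from 0.255 ± 0.0023 to 0.336 ± 0.0093, and that of Fabp7 to Aldoc from 0.495 ± 0.0228 to 0.651 ± 0.0616 (SD, n = 3 each). None of these ratios overlapped between the genotypes. For Gfap to Slc1a2, Gfap to Aldh1l1 and Fabp7 to Aldoc this adds nothing to the results of the separate genes. Each sets a gene that rose without overlap over a gene that fell without overlap.

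**Figure D3:**
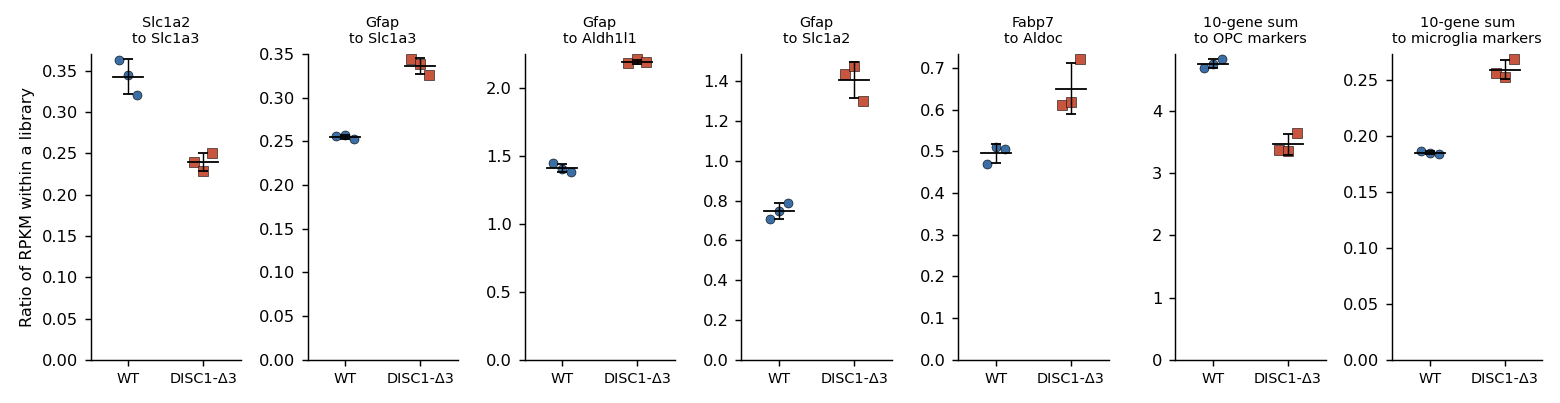
Ratios of RPKM within each library (vertical axes, no unit, from 0) for pairs of genes and for summed gene lists, in WT (circles) and DISC1-Δ3 (squares) libraries, with the mean and SD (n = 3 each) in black. The 3 points of a genotype do not overlap those of the other in any panel; the ratio of Gfap to Slc1a2 goes from 0.746 to 1.41, and the ratio of the 10-gene sum to OPC markers from 4.77 to 3.47.

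Replicates lay close together. The coefficient of variation of the RPKM was 0.547% to 5.79% in WT and 1.20% to 9.12% in DISC1-Δ3 libraries, lowest for Gfap in WT and highest for Aqp4 in DISC1-Δ3 cells. On TMM-scaled values DISC1-Δ3 replicate 3 was the library farthest from its group for 7 of the 10 genes. Without it, 3 genes were higher and 5 lower, as with all libraries, and the median of the 10 genes was -0.11.

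The wider astrocyte set was then examined, as a list of 35 further genes. The list was written from general knowledge, but with earlier results of these data known. At an adjusted p under 0.05, 22 fell, 3 rose and 10 did not pass, with a median log2 fold change of -0.19. The count of falls was 17 when RPKM sums set the scaling and 20 to 23 with each library left out in turn. The share of the 35 that passed was 71.4%. Of all tested genes 19.5% fell and 20.4% rose. Of the deeply read ones 35.5% fell and 19.8% rose, with a median of -0.05. F3, which encodes tissue factor, fell by 0.83 on the log2 scale (SE 0.058, adjusted p = 3.39e-09), from 60.9 ± 2.35 to 36.3 ± 2.52 RPKM (SD, n = 3 each). Itgb5, which encodes the integrin that the study uses to capture astrocytes, fell by 0.58 (SE 0.043, adjusted p = 6.03e-09), from 372 ± 3.09 to 263 ± 9.24 RPKM (SD, n = 3 each). Slc7a10, an amino acid transporter of astrocytes, fell by 0.41 (adjusted p = 4.30e-06).

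The 3 further astrocyte genes that rose were Mt3, Id3 and Dio2. Mt3, which encodes a brain metallothionein, had a log2 change of 0.38 with a standard error of 0.048 (adjusted p = 4.77e-06), while its relatives Mt1 and Mt2 fell by 0.36 and 0.24. Id3, an inhibitor of basic helix-loop-helix factors, rose by 0.35 (adjusted p = 0.000134) and Dio2, the deiodinase that activates thyroid hormone, by 0.33 (adjusted p = 0.0011). Apoe, which astrocytes and microglia both secrete, had the highest RPKM of all genes in WT cells, at 12523 ± 274, and fell by 0.22 (adjusted p = 0.00054). Glul, which encodes glutamine synthetase, the enzyme that converts glutamate taken up by astrocytes, fell by 0.18 (adjusted p = 0.00179).

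Further radial glia genes moved both ways. Of 16 genes 5 rose and 6 fell, with a median of 0.04, and 8 rose when RPKM sums set the scaling. The share that passed was 68.8%, beside 39.9% of all tested genes and 55.3% of the deeply read ones. Of the deeply read ones 19.8% rose and 35.5% fell. Vim, which encodes the intermediate filament vimentin, rose from 126 ± 1.40 to 223 ± 2.91 RPKM (SD, n = 3 each), which is a log2 change of 0.75 with a standard error of 0.042 (adjusted p = 1.61e-10). Tnc, a matrix protein, rose by 0.37 (adjusted p = 1.19e-05) and Cdh2, which encodes N-cadherin, by 0.32 (adjusted p = 4.16e-05). The falls were led by Gli3, a factor of Hedgehog signaling, at -0.55 (adjusted p = 0.00143). Hes1, a Notch target, fell by 0.46 (adjusted p = 2.22e-06), and Lfng, a modifier of Notch receptors, by 0.45 (adjusted p = 6.59e-07).

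**Figure D4:**
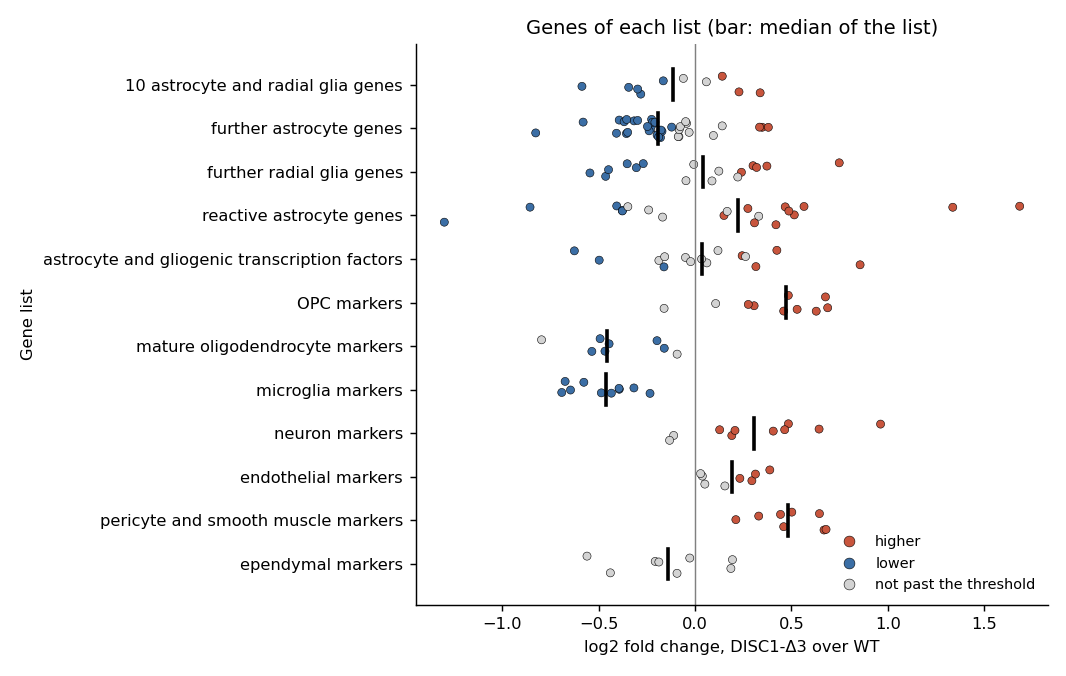
Log2 fold change (DISC1-Δ3 over WT, horizontal axis) of every tested gene in the 10-gene set and in 11 other lists (rows), coloured by its call at an adjusted p under 0.05, with the median of each list as a black bar; vertical scatter within a row has no meaning. The further astrocyte genes have a median of -0.19, the microglia markers -0.46 and the OPC markers 0.47.

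Genes that reactive astrocytes switch on after injury were largely weak. Of the 23 listed, 20 passed the RPKM filter. The median level over all 23 was 3.37 RPKM in WT cells, and Ugt1a1 had at most 3 reads in any library. Among the 20, 10 rose and 5 fell, with a median of 0.22, but 6 rose without WT replicate 2, without DISC1-Δ3 replicate 1 or with DESeq2. The share that passed with all libraries was 75.0%, beside 39.9% of all tested genes, of which 20.4% rose and 19.5% fell. Sphk1, a sphingosine kinase, rose by 1.68 (SE 0.27, adjusted p = 7.44e-05) from 0.443 ± 0.0850 to 1.59 ± 0.392 RPKM (SD, n = 3 each). Emp1, a membrane protein, rose by 1.34 (adjusted p = 2.19e-09) and Tm4sf1 by 0.57 (adjusted p = 0.000995). Slc10a6, Gbp2 and Lcn2 fell by 1.30, 0.86 and 0.41. Lcn2 encodes lipocalin 2, a leading transcript of reactive astrocytes, and Gbp2 is a target of interferon.

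Of 15 transcription factors of astrocytes and gliogenesis 4 rose, 3 fell and 8 did not pass, with a median of 0.03. The share that passed was 46.7%, near the 39.9% of all tested genes and below the 55.3% of the deeply read ones. Sox21 rose from 9.42 ± 0.463 to 18.0 ± 0.297 RPKM (SD, n = 3 each), which is a log2 change of 0.86 with a standard error of 0.063 (adjusted p = 6.07e-09). Id1 and Lhx2 rose by 0.42 and 0.32. Rorb, Atf3 and Nfia fell by 0.63, 0.50 and 0.16, of which Atf3, a stress-induced factor, had the highest level, at 634 ± 18.1 RPKM in WT cells. Stat3, which drives Gfap in reactive astrocytes, had a log2 change of -0.02 (adjusted p = 0.718).

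Markers of other cell types were compared between the genotypes in the same libraries. Of all tested genes 20.4% rose and 19.5% fell, and of the deeply read ones 19.8% rose and 35.5% fell. All 10 microglia markers fell, led by C1qb, C1qa and Tmem119 at -0.69, -0.67 and -0.65, and their summed level was 12014 to 12231 RPKM in WT and 8474 to 8792 in DISC1-Δ3 libraries. Of 10 OPC markers 8 rose and none fell, led by Nkx2-2, Gpr17 and Lhfpl3 at 0.69, 0.68 and 0.63, with sums of 465 to 478 against 625 to 661 RPKM. Pdgfra, Olig2 and Cspg4 rose by 0.48, 0.53 and 0.46, and Sox10 had a log2 change of 0.11 (adjusted p = 0.151). Of 8 markers of mature oligodendrocytes 6 fell, among them Mag and Cldn11 at -0.54 and -0.47, with sums of 2514 to 2547 against 2309 to 2344 RPKM.

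Neuron markers rose for 8 of 10, led by Syt1, Nefl and Snap25 at 0.96, 0.64 and 0.48, with sums of 388 to 392 against 471 to 486 RPKM. Endothelial markers rose for 4 of 8, led by Cldn5, Itm2a and Flt1 at 0.39, 0.31 and 0.29 (sums of 180.1 to 186 against 224 to 232 RPKM). The endothelial share that passed, 50.0%, lay between the 39.9% of all tested genes and the 55.3% of the deeply read ones. Markers of pericytes and smooth muscle, a list that also holds Cspg4, rose for all 8, led by Tagln, Abcc9 and Acta2 at 0.68, 0.67 and 0.65 (sums of 163 to 174 against 233 to 242 RPKM). None of 8 ependymal markers passed by edgeR or by DESeq2, and 0 of them had an unadjusted p under 0.05 in edgeR. Their sums were 36.1 to 38.8 against 36.7 to 38.1 RPKM. No marker of these lists was at 3 reads or fewer in every library.

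Relative to these markers, the astrocyte and radial glia genes took different positions. The sum of the 10 genes was 4.69 to 4.84 times that of the OPC markers in WT and 3.36 to 3.66 times in DISC1-Δ3 libraries. Over the microglia markers it was 0.184 to 0.186 in WT and 0.253 to 0.269 in DISC1-Δ3 libraries. The microglia markers summed to 25.2 to 26.3 times the OPC markers in WT and 13.2 to 13.6 times in DISC1-Δ3 libraries. The part of these markers in the changes of the 10 genes was not tested.

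**Figure D5:**
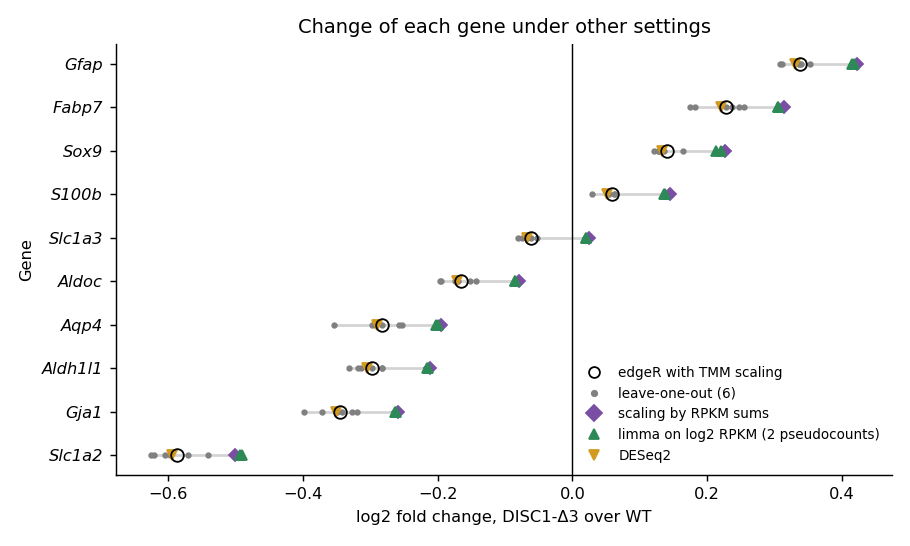
Log2 fold change of each of the 10 genes (DISC1-Δ3 over WT, horizontal axis) as fitted with TMM scaling (open circles) and under other settings: each library left out (grey points), scaling by RPKM sums (diamonds), limma on log2 RPKM (triangles up) and DESeq2 (triangles down); the grey line spans all alternatives. Scaling by RPKM sums and the limma fits lie to the right of TMM for every gene, and only for Slc1a3 does this cross 0, at 0.02.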

How the data were processed

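The authors deposited 1 table for the 6 libraries, made from single-end reads of 50 bases. It holds an expected count per gene, in which 90.2% of values above 0 are whole, and an RPKM, to which the authors scaled those counts and which they deposited with 2 decimals. The submitters' processing notes name Bowtie2 2.2.5 and the build mm10; the counter and the annotation are not given in the sources used here. The table's 4 columns of averages per group were left out. Counts were rounded to whole reads. A gene was tested where 3 or more of the 6 libraries had 0.5 RPKM or higher, with edgeR 4.0.16 (quasi-likelihood test, TMM, a term for genotype) in R 4.3.3. P-values are two-sided, with Benjamini-Hochberg adjustment across every tested gene, and intervals are the fitted change plus or minus the t quantile times its standard error. DESeq2 1.42.0, limma 3.58.1 on log2(RPKM + 1) and log2(RPKM + 0.1), other scalings and filters, the replicate number as a block, and each library left out were the alternatives. The edgeR fit was tested on simulated data: it recovered 200 of 200 genes changed by a log2 fold change of 1 among 13792, with 7 false calls. None of the 10 genes changed by that much, and 5498 genes were called in the data. How well the fit finds smaller changes, or changes in so many genes, was not tested.

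The members and lists were chosen with earlier results of these data known. All 10 genes are named; of each other list, the 3 largest rises and 3 largest falls past the threshold without overlap on TMM-scaled values are named, with 4 OPC genes, Disc1 and Itgb5. Of the genes so chosen, 1 is not reported here. Olig1, Cacng4, Vcan, Gjb6, Mt1, Mt2, Apoe, Glul, Stat3 and Ugt1a1 were named after their values were seen. Gene positions are those of GENCODE M21 (GRCm38). The reads carry no molecular identifiers, so read numbers overstate how many molecules were counted.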

Additional observations from a re-analysis of the deposited data

How the results depend on the processing

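Of 140 fold changes of the 10 genes under 14 alternatives each, 126 kept their direction and side of the threshold. Gfap, Slc1a2, Gja1, Aldh1l1, Aqp4 and Fabp7 did so under all 14. Slc1a3, which is never past the threshold, turned from -0.06 to 0.025 when RPKM sums set the scaling (adjusted p = 0.556) and to 0.0205 and 0.0206 in the limma fits. Aldoc lost its call in those 3 fits, S100b passed in them, and Sox9 lost its call with DESeq2 and in 4 of the fits with a library left out. These 3 fits apply no TMM factor, which raises the median of all genes from 0.0075 to between 0.07 and 0.09. The share of calls that are higher went from 51.1% to 70.0% with RPKM sums, and the lower genes from 2691 to 1755, or to 1774 and 1763 with limma. The median of the 10 genes went from -0.11 to -0.0274 with RPKM sums and to -0.0321 in both limma fits, but lay 0.11 to 0.12 below the median of all genes. It ran from -0.14 to -0.10 with each library left out. The further radial glia genes that rose were 8 in the same 3 fits. The reactive genes that rose were 6 with DESeq2, and 6 to 10 with each library left out; the cause was not tested. Whether the replicate numbers pair the libraries was not settled. Deviations of same-numbered libraries correlated at 0.0413, 0.034 and -0.0139 for replicates 1 to 3. Libraries of unlike number correlated at -0.0468 to 0.0136, so replicates 1 and 2 correlated best with their own number and replicate 3 did not. All these correlations are close to 0. With the replicate number as a block, 3 genes were higher and 5 lower, their median was -0.11, and no call among the 10 genes changed; all tested genes had 2774 higher and 2655 lower calls. Each of the 10 genes had at least 1167 reads in every library.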
